A study of Mus musculus with 4 samples.

Results

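The telomere-near ends of the mouse autosomes were examined: all genomic array probes of chromosomes 1 to 19 whose midpoint lies within 5000000 bp of the midpoint of the last probe on the same chromosome. These were 7071 of the 161460 autosomal probes on the array (4.38%), and 7051 of them were usable on all 4 arrays. Each chromosome contributed one such end, called a distal end here, with 237 usable probes on chromosome 17 at the least and 478 on chromosome 15 at the most. The rule uses position alone, and these ends were picked for description with earlier results of the same arrays known. The distance from the last probe to the telomere itself was not determined, so the ends are telomere-near only as far as the array reaches. The median distance between neighbouring probes was 10521 bp in the distal ends and 10843 bp over all autosomes.

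The cells were mouse embryonic fibroblasts (cells of the connective tissue, grown in culture), and replication timing was measured with 1 array of 2 colours in each of 4 groups. The groups were control cells, knockout cells (KO) labelled as deleted for a floxed SUV4-20H1 allele, a suv4-20h mutant that was not induced, and the same kind of mutant after induction. All cells were grown in 3% oxygen, took up the thymidine analogue BrdU (50 µM, 1 hour) and were sorted by DNA content, with 80000 cells sorted into early and late S phase. Labelled DNA of both fractions was captured with a BrdU antibody and hybridised to the same array, early DNA in Cy3 and late DNA in Cy5. The protocol in the labels states that the floxed allele was deleted with 4-hydroxytamoxifen (1 mM, 24 hours). How induction was done is not given there, nor whether the KO cells were cloned or the other groups exposed to tamoxifen, and the labels number the fibroblast line differently in different fields. Control and KO shared 1 slide, non-induced and induced cells another, and dyes were not swapped.

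A chromosome end carries a telomere, a repeat array capped by proteins that protects the DNA from being treated as a break. The stretch next to it can take on a silent chromatin state, and Suv4-20h enzymes, which add methyl groups to histone H4, act at telomeric and pericentric heterochromatin. Mouse autosomes have their centromere at one end, so each has a single distal end that lies away from the centromere. Along a chromosome, megabase-sized domains replicate together; gene-rich, active domains usually replicate early in S phase, and gene-poor, silent ones late.

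Timing is given as log2 of the early signal over the late one, relative to the median autosomal probe of the array, so a higher value is earlier replication. Standard errors are over the probes of a region within an array, and standard deviations (SD) are over chromosomes. Each group is 1 array, so no spread between cultures was measured, no test between conditions was possible, and neighbouring probes are not replicates. The range from the 10th to the 90th percentile over 200 kb windows was 1.81 for control, 2.32 for KO, 2.08 for non-induced and 2.70 for induced cells. The arrays thus also differed in overall spread. Values with arrays scaled to the same spread are given beside most differences that scaling moves. In the distal ends, 90.5 to 95.5% of probes had both channels well above background.

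The distal ends fell into early and late chromosomes, and this division was the same on all arrays but for 1 chromosome. Mean timing was above 0 on every array for 12 of the 19 ends and below 0 on every array for 6, those of chromosomes 3, 12, 13, 14, 17 and 18. The end of chromosome 10 was at 0.12 for control, -0.15 for KO, -0.018 for non-induced and -0.050 for induced cells. The earliest end in control, non-induced and induced cells was that of chromosome 15, at 0.77 for control, 0.72 for KO, 0.78 for non-induced and 0.996 for induced cells. That of chromosome 11 came next on the same 3 arrays, at 0.74, 0.65, 0.70 and 0.94 in the same order, while chromosome 5, at 0.78, was the earliest end in KO cells. All 24 windows of 200 kb in each of the ends of chromosomes 15 and 11 were above 0 on all 4 arrays. The end of chromosome 3 was at -0.77 for control, -1.08 for KO, -0.73 for non-induced and -1.31 for induced cells. That of chromosome 12 was at -0.58, -0.77, -0.72 and -1.04, and that of chromosome 13 at -0.57, -0.49, -0.66 and -0.91. The end of chromosome 18 was at -0.57, -1.17, -0.83 and -1.43, and that of chromosome 17 at -0.38, -1.29, -0.57 and -1.20. Chromosome 3 was the lowest in control, chromosome 17 in KO, and chromosome 18 in non-induced and induced cells. The end of chromosome 14 lay close to 0, at -0.086, -0.24, -0.11 and -0.25, with early inner windows and a late terminal stretch.

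**Figure D1:**
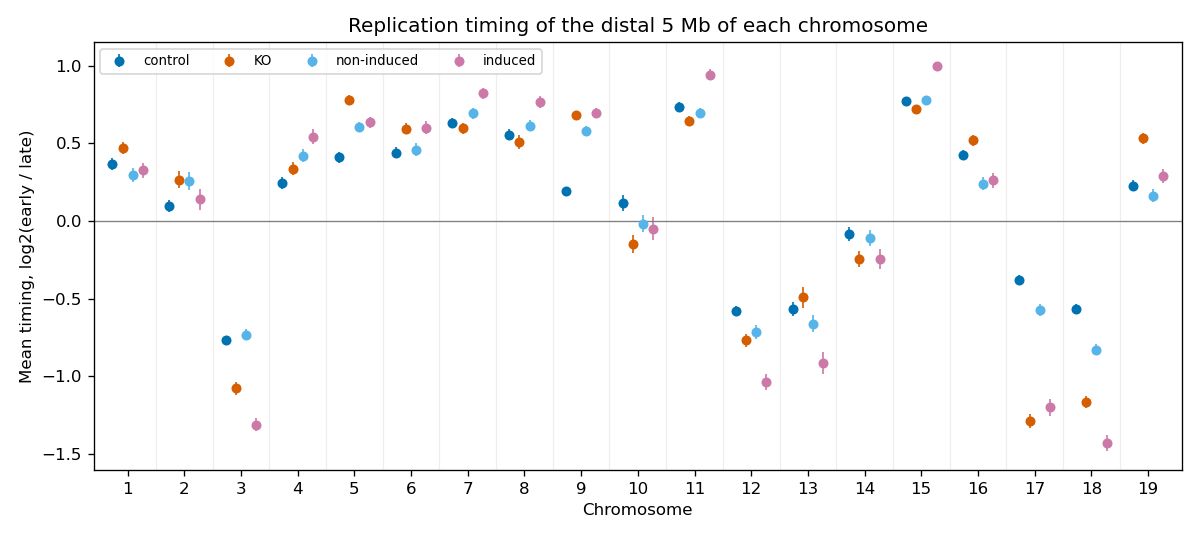
Mean timing of each distal end (log2 of early over late, y axis) by chromosome (x axis) on the control, KO, non-induced and induced arrays, with bars for the standard error over probes. Chromosomes 11 and 15 are early on all 4 arrays, and chromosomes 3, 12, 13, 17 and 18 are late on all 4. On chromosomes 3, 10, 12, 14, 17 and 18 KO and induced lie below control and non-induced.

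Over the 19 ends, mean timing was 0.12 for control, 0.077 for KO, 0.11 for non-induced and 0.043 for induced cells, with an SD of 0.48, 0.70, 0.56 and 0.82. The spread between chromosomes was therefore several times the mean on every array. Relative to the rest of its own chromosome, the distal end had a mean difference of 0.10 for control, 0.19 for KO, 0.12 for non-induced and 0.15 for induced cells, with SDs of 0.45, 0.70, 0.53 and 0.79. The end was the earlier side in 13, 12, 13 and 13 of the 19 chromosomes in the same order, so no common direction held. With ends of 2 Mb in place of 5 Mb, the mean differences were -0.079, 0.018, -0.13 and -0.17, below 0 on 3 of the arrays. By windows, 54.4%, 61.4%, 57.9% and 57.5% of the 456 distal windows were above 0, against 44.6%, 43.2%, 44.2% and 42.5% of the other autosomal windows. In the centromere-near starts, defined in the same way from the first probe, the shares were 36.2%, 38.3%, 35.8% and 34.2%. In all, 226 distal windows were above 0 on all arrays, 153 were below 0 on all, and 77 (16.9%) were mixed, where 19.3% of all autosomal windows were mixed. These windows are not independent of each other, and the shares are descriptions.

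Within the ends, the outermost stretch was later than the part further in on most chromosomes. The first 0.5 Mb from the last probe had a mean over chromosomes of -0.14, -0.13, -0.13 and -0.34 (control, KO, non-induced, induced), while the step from 3.5 to 4 Mb had 0.32, 0.16, 0.39 and 0.36. Beyond the ends, the step from 9.5 to 10 Mb was at -0.16, -0.32, -0.19 and -0.37 in the same order. Means below 0 were thus not particular to the outermost stretch. The terminal 1 Mb was lower than the stretch from 4 to 5 Mb in 14 of 18 chromosomes for control, 12 for KO, 14 for non-induced and 16 for induced cells. Chromosome 2 had no probe in the inner stretch and is left out of these counts. The mean of these differences was -0.28, -0.28, -0.41 and -0.59, with SDs of 0.51, 0.61, 0.49 and 0.58. Each mean was about as large as the spread between chromosomes on the induced array and smaller than it on the others. The last window was below 0 on all arrays on chromosomes 1, 8, 9, 10, 12, 14, 17, 18 and 19, and above 0 on all arrays on chromosomes 4, 7, 11 and 15. At the 5 Mb limit itself, the 124 probes between 4.9 and 5 Mb had means of 0.060, 0.028, 0.056 and 0.087, and the 115 probes between 5 and 5.1 Mb had 0.022, -0.068, -0.036 and -0.096.

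**Figure D2:**
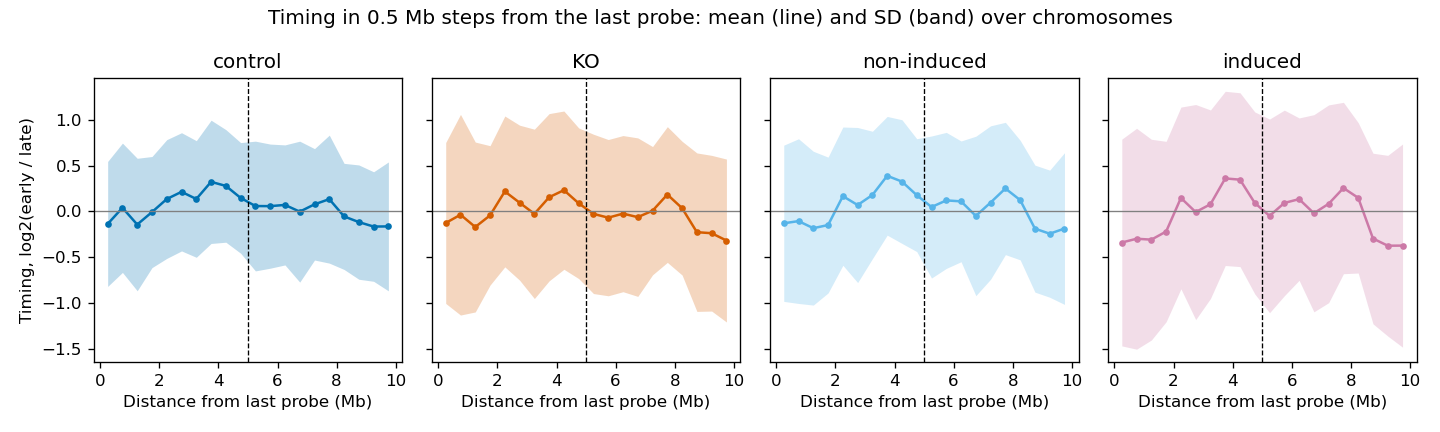
Mean timing (log2 of early over late, y axis) in steps of 0.5 Mb from the last probe (x axis) for each array, with a band of 1 SD over chromosomes and a dashed line at 5 Mb, the limit of the distal ends. All 4 lines are below 0 in the outermost step and highest on control, non-induced and induced at 3.5 to 4 Mb, and the bands are wider than these steps. From 9.5 to 10 Mb, beyond the ends, all 4 lines are below 0 as well.

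The ends differed in shape. On chromosome 14, the terminal 1 Mb was at -0.95, -1.54, -1.07 and -1.58 and the stretch from 4 to 5 Mb at 0.12, 0.15, 0.34 and 0.31 (control, KO, non-induced, induced). On chromosome 10, an early stretch was flanked by late windows on both sides: the window starting at 127400001 was at 0.81, 0.77, 0.88 and 0.96, and the last window, starting at 129800001, at -1.32, -1.81, -1.47 and -2.21. Between the windows starting at 128400001 and 128800001, timing fell from 0.80 for control, 0.40 for KO, 1.01 for non-induced and 0.95 for induced cells to values of -1.01, -1.55, -1.02 and -1.04. The step was thus at the same place on all arrays within 0.4 Mb. Chromosomes 4 and 7 went the other way. Their terminal 1 Mb was at 0.74, 0.79, 0.78 and 1.01 on chromosome 4 and 0.83, 0.67, 0.70 and 0.92 on chromosome 7, where the stretch from 4 to 5 Mb was at 0.23, 0.49, 0.61 and 0.79 and 0.34, 0.013, 0.39 and 0.43.

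KO cells were first compared with control cells, which asks how timing differs between cells labelled as deleted for Suv4-20h1 and their controls. These arrays also differed in signal from sex chromosomes: 106 of 122 chromosome Y probes passed background clearly in both channels in KO and 50 did so in control cells, and total signal on chromosome X was -0.88 and -0.38 relative to the autosomes. The cells may therefore differ in more than the labelled deletion, and such differences cannot be told apart from it in any KO minus control value. The distal ends did not move together: KO was lower in 10 ends and higher in 9, with a mean difference of -0.043 and an SD of 0.33 over 19 chromosomes. After scaling, it was lower in 12 and higher in 7. The rest of the chromosomes had a mean difference of -0.13. Relative to the rest of its chromosome, which does not depend on the centre chosen for the array, the end had the higher difference in 14 of 19 chromosomes, by 0.088 on average (SD 0.35). After scaling, the figures were 12 of 19 and 0.057 (SD 0.29). Centring on the median window moved the mean over ends to 0.14, above 0.

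A window was called later or earlier where the difference reached 0.25 of that percentile range on the reference array (0.45 for KO, 0.52 for induced) and 3 standard errors over its probes. Of the 456 distal windows, 72 (15.8%) were later in KO than in control cells, against 22.0% of all 11314 autosomal windows. Earlier were 61 (13.4%), against 8.12% of all windows. The later windows were gathered on a few ends: 34 of the 72 lay on chromosomes 17 and 18. Without these chromosomes, a view taken after seeing the data, 38 of 411 distal windows (9.25%) were later and 61 (14.8%) earlier. Of all autosomal windows outside these chromosomes, 22.0% were later and 8.07% earlier. With arrays scaled to the same spread, 9.21% of distal windows were later and 8.77% earlier, against 13.5% and 6.36% of all windows. Of the 72 later windows, 65 were below 0 on both arrays. Of the 61 earlier ones, 31 crossed from below 0 to above 0, and 26 were above 0 on both arrays. Such counts by sign were not made over all autosomal windows.

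**Figure D3:**
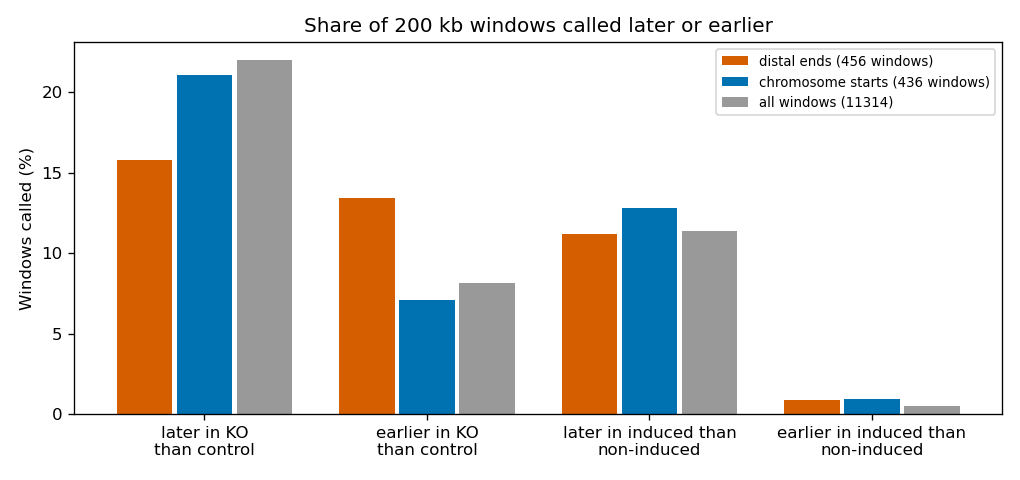
Share of 200 kb windows (y axis, percent, from 0) called later or earlier in KO than in control and in induced than in non-induced cells (x axis), for the distal ends, the chromosome starts and all autosomal windows. In KO, 15.8% of distal windows were later and 13.4% earlier, where all windows had 22.0% and 8.12%. In induced cells, 11.2% were later and 0.877% earlier, where all windows had 11.4% and 0.477%.

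The lowest difference was that of chromosome 17. Its distal end was at -0.38 for control, -1.29 for KO, -0.57 for non-induced and -1.20 for induced cells, which made KO minus control -0.91 ± 0.045 (SE over 237 probes; -0.78 with arrays scaled to the same spread). KO and induced were the low arrays there, as they were on the ends of chromosomes 3, 10, 12, 14 and 18. On chromosome 17 non-induced lay closer to control, at a non-induced minus control difference of -0.19 ± 0.039. Of the 24 windows of this end, 21 were later in KO, and they merged into 1 region from 90400001 to 94800000 (mm9). Over its 213 probes, timing was -0.33 for control, -1.33 for KO, -0.50 for non-induced and -1.16 for induced cells, with a KO minus control difference of -0.999 ± 0.043 (SE). The windows after it, the last 0.4 Mb of the chromosome, were at -0.82 and -0.88 in control and -1.02 and -0.93 in KO cells, so the difference shrank towards the end of the chromosome. The next 5 Mb of chromosome 17, from 5 to 10 Mb before the last probe, were at -0.10 for control, -0.072 for KO, 0.15 for non-induced and 0.065 for induced cells, a KO minus control difference of 0.030. In the rest of chromosome 17, 16.1% of windows were later in KO.

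In this end the early signal differed between control and KO by far more than the late signal. Relative to the autosomal median of each channel, mean early log2 signal was -0.38 in control and -1.20 in KO cells, and mean late signal -0.025 and 0.026. On the non-induced and induced arrays, early signal was -1.20 and -1.54 and late signal -0.58 and -0.33. Low early signal was thus not particular to KO, although non-induced timing lay closer to control. Total signal, the mean of both channels, was -0.38 in KO minus control, and it ranged from -0.62 on chromosome 3 to 0.49 on chromosome 16 over the distal ends. Its part in the timing differences was not tested. The share of probes well above background in both channels was 96.6% in control and 88.4% in KO cells. This end is thinly covered, with 238 probes where the median end had 382, and 17 of its 24 windows held under 10 probes.

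Chromosome 18 came next. Its distal end had a KO minus control difference of -0.60 ± 0.040 (SE over 244 probes, and -0.43 after scaling), with 13 of 21 windows later and 0 earlier. In the rest of chromosome 18, 21.2% of windows were later in KO and 10.8% earlier. The largest later region covered 2.8 Mb of the inner part of the end. Timing there was -0.23 for control, -1.18 for KO, -0.55 for non-induced and -1.21 for induced cells over 105 probes. There the difference was -0.95 ± 0.064, while the last window of the chromosome was at -1.25, -1.05, -1.31 and -1.96 (control, KO, non-induced, induced) with KO above control. From 5 to 10 Mb before the last probe, chromosome 18 was at -0.21, -0.33, -0.23 and -0.33 in the same order, a difference of -0.13. As on chromosome 17, early signal was lower in KO than in control (-0.79) by more than late signal (-0.24). Early signal of this end was -0.16 for control, -0.95 for KO, -0.87 for non-induced and -1.19 for induced cells.

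**Figure D4:**
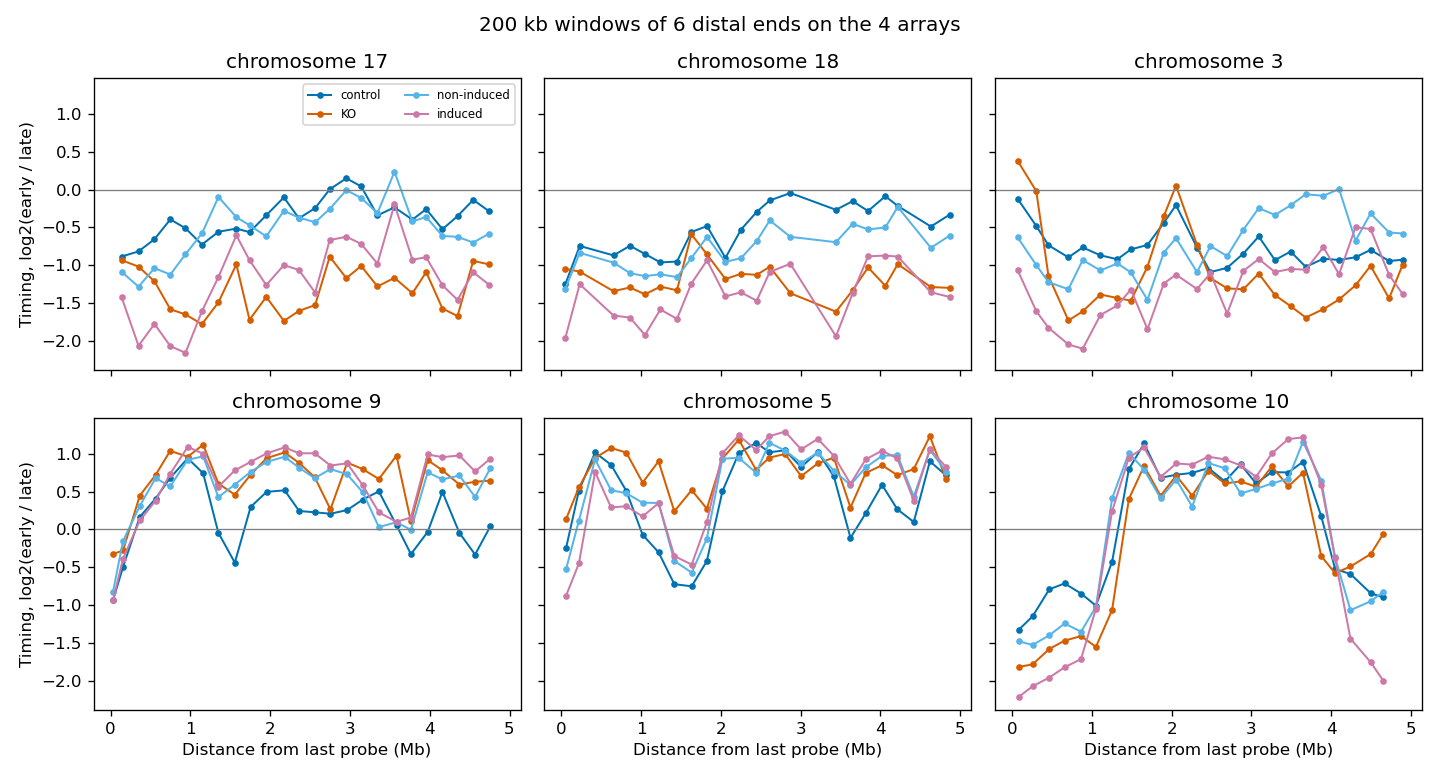
Timing (log2 of early over late, y axis) of 200 kb windows by distance from the last probe (x axis, Mb) on the distal ends of chromosomes 17, 18, 3, 9, 5 and 10, with 1 line per array. KO and induced both lie below control and non-induced in 21 of 24 windows on chromosome 17 and 19 of 21 on chromosome 18, with KO above non-induced in the last window of each. On chromosome 9 control runs below the other 3 arrays through much of the end, on chromosome 5 KO alone stays above 0 near 1.5 Mb, and on chromosome 10 all arrays cross 0 at about the same distances.

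Later calls in KO elsewhere were smaller or shorter. The end of chromosome 3 had a difference of -0.31 ± 0.032 (-0.092 after scaling and 0.053 with quantile normalization, which turned its direction). Its region from 158000001 to 159000000 was at -0.84 for control, -1.53 for KO, -1.10 for non-induced and -1.68 for induced cells. The KO minus control difference there was -0.69 ± 0.055 over 56 probes (-0.43 after scaling). The last 2 windows of chromosome 3 were instead at -0.48 and -0.12 in control and -0.021 and 0.38 in KO cells, so KO was the higher array there. On chromosome 10, the terminal region from 128600001 to 130000000 was at -0.88 for control, -1.51 for KO, -1.12 for non-induced and -1.55 for induced cells, with a difference of -0.63 ± 0.051 over 118 probes (-0.37 after scaling). Single later windows were found on chromosome 8 from 129800001 to 130000000 (-0.16 in control and -0.91 in KO cells) and on chromosome 7 from 147800001 to 148000000 (0.49 and -0.23). In both of these the non-induced and induced arrays were above 0, at 0.13 and 0.26 on chromosome 8 and 0.59 and 0.39 on chromosome 7.

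The highest difference was that of chromosome 9. Its distal end was at 0.19 for control, 0.68 for KO, 0.58 for non-induced and 0.70 for induced cells, a KO minus control difference of 0.49 ± 0.026 (SE over 440 probes; 0.42 after scaling). Control was the low array here, and the other 3 lay between 0.58 and 0.70. The region from 119200001 to 122800000 held 11 of its 12 earlier windows. Timing in this region was 0.14 for control, 0.69 for KO, 0.62 for non-induced and 0.79 for induced cells. In the rest of chromosome 9, 9.17% of windows were earlier in KO. Non-induced minus control was 0.39 ± 0.032 for the whole end, the highest of the 19 ends in that comparison too, so this difference sets control apart from each of the other arrays. These comparisons share the control array.

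On chromosome 5, KO stood apart instead. The region from 150600001 to 151800000 was at -0.32 for control, 0.61 for KO, 0.012 for non-induced and -0.00020 for induced cells, a difference of 0.93 ± 0.064 over 96 probes (0.98 after scaling). Its window starting at 150800001 was at -0.75 for control, 0.52 for KO, -0.57 for non-induced and -0.46 for induced cells, and the windows on its inner side, from 149200001 to 150400000, were above 0 on all arrays. A late stretch between early neighbours was thus present on 3 arrays and was early on the KO array. On chromosome 13, the region from 117600001 to 118200000 was at -0.27 for control, 0.54 for KO, -0.98 for non-induced and -1.28 for induced cells, a difference of 0.81 ± 0.078 over 46 probes, inside an end that was late on all arrays. KO was above 0 there and the other 3 arrays were below 0. On chromosome 16, the terminal region from 97800001 to 98400000 was at 0.13 for control, 0.86 for KO, -0.24 for non-induced and -0.39 for induced cells, a difference of 0.73 ± 0.061 over 39 probes. Control and KO were above 0 there and the non-induced and induced arrays below 0.

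The remaining earlier regions among the 6 largest were single windows. Chromosome 4 from 153400001 to 153600000 had the largest difference, 1.23 ± 0.25 over 19 probes, at -0.61 for control, 0.62 for KO, 0.27 for non-induced and 0.16 for induced cells. Control was the only array below 0. Chromosome 4 from 150800001 to 151000000 was at -0.18, 0.62, 0.48 and 0.53 on these arrays, and chromosome 10 from 125200001 to 125400000 at -0.90, -0.058, -0.82 and -1.995 over only 5 probes. The ends of chromosomes 5 and 19 as a whole were also higher in KO, by 0.37 ± 0.032 and 0.31 ± 0.030 (0.25 and 0.23 after scaling). Of the 25 windows of the end of chromosome 19, 10 were earlier, where 8.12% of all autosomal windows were.

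**Figure D5:**
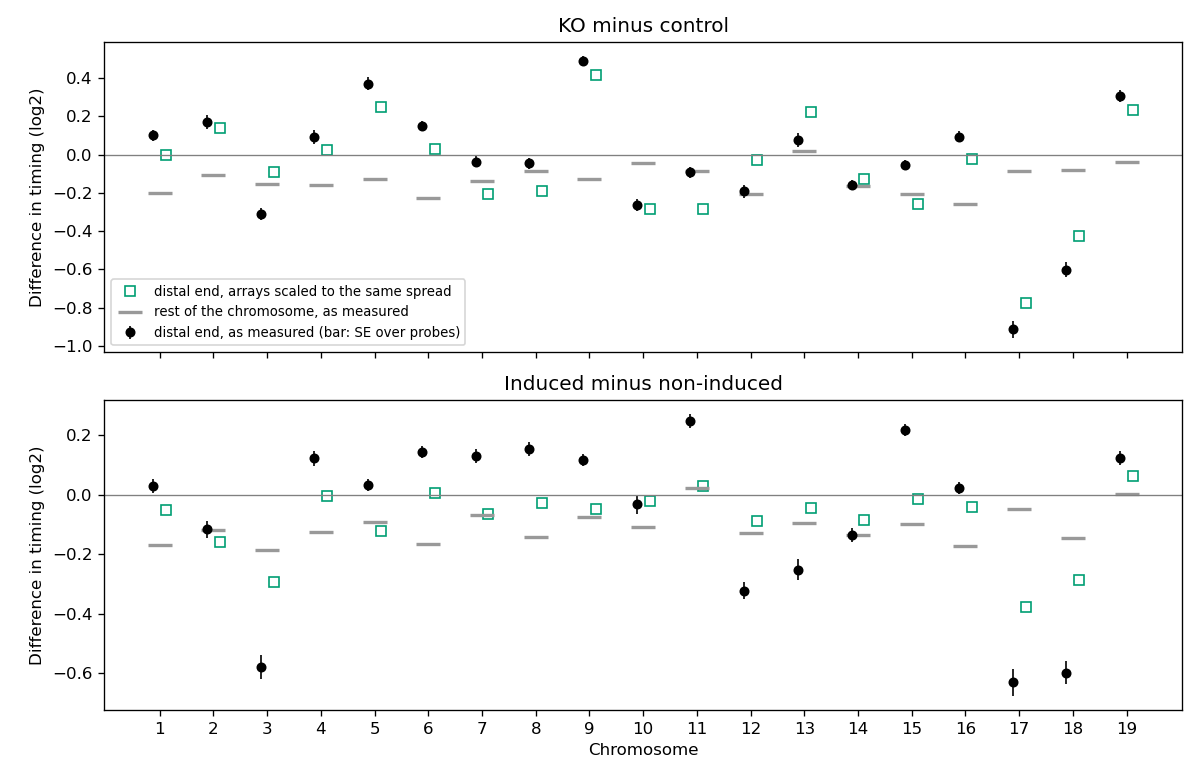
Difference in mean timing (log2, y axis) of each distal end by chromosome (x axis), KO minus control above and induced minus non-induced underneath, with bars for the standard error over probes, open squares for arrays scaled to the same spread and dashes for the rest of the chromosome. Chromosomes 17 and 18 are lowest in KO and stay below -0.4 after scaling, chromosome 9 is highest, and in the induced comparison most differences above 0 fall to 0 or below it after scaling.

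Induced cells were then compared with non-induced ones, which asks how timing differs upon induction. The late ends were lower on the induced array and most early ends slightly higher, and the second part of this turned with scaling. All 6 ends that were late on every array had lower values, with a mean difference of -0.42 (SD 0.21), and -0.20 after scaling with all 6 still below 0. Of the 12 early ends, 11 had higher values, by 0.10 on average (SD 0.098). After scaling, 9 of these 12 were below 0 and their mean was -0.037. Over all 19 ends, the mean was -0.070 (SD 0.28), and 0.13 where arrays were centred on the median window. The grouping by timing used these arrays too, so the counts describe the ends and do not test them.

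Of the 456 distal windows, 51 (11.2%) were later in induced than in non-induced cells, against 11.4% of all windows, and 4 (0.877%) were earlier, against 0.477%. The share of later windows was thus near that of the genome. With arrays scaled to the same spread, 8 (1.75%) were later, against 1.81% of all windows, and 0 were earlier, against 0.0707% of all windows. Of the 51, 50 were below 0 on both arrays already, a count not made over all autosomal windows, and 20 lay on chromosomes 17 and 18. In the later windows, 89.9% of probes in non-induced and 68.6% in induced cells were well above background in both channels. Early signal there averaged -1.05 on the non-induced and -1.40 on the induced array relative to the median of the channel, and late signal -0.11 and 0.18. The part of this dimness in the calls was not tested beyond leaving such probes out: over probes that passed this mark on all arrays, 5.58% of distal windows were later, against 5.63% of all windows.

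The ends with the lowest induced differences were those of chromosomes 17, 18 and 3, at -0.63 ± 0.045, -0.60 ± 0.039 and -0.58 ± 0.040 (SE over probes; -0.38, -0.29 and -0.29 after scaling). They were also the lowest 3 after scaling. On chromosome 17, the later region from 92600001 to 95000000 was at -0.48 for control, -1.48 for KO, -0.64 for non-induced and -1.43 for induced cells. The induced minus non-induced difference there was -0.80 ± 0.078 over 73 probes (-0.50 after scaling). From 5 to 10 Mb before the last probe the induced minus non-induced difference was -0.089 on chromosome 17 and -0.10 on chromosome 18. Both lay closer to 0 than the differences of the ends. On chromosome 18, the merged later region took in 9 called windows over 4.4 Mb, with a difference of -0.60 ± 0.040 (-0.28 after scaling). Only 62.6% of probes in the end of chromosome 17 were well above background in both channels on the induced array. On chromosomes 18 and 3 the share was 74.6% and 72.1%. On the non-induced array it was 87.2%, 93.0% and 89.4% for chromosomes 17, 18 and 3.

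Chromosome 3 held a pair of longer later regions. From 155800001 to 157000000 timing was -0.87 for control, -1.36 for KO, -0.41 for non-induced and -1.15 for induced cells. The difference was -0.73 ± 0.085 over 96 probes (-0.50 after scaling), and non-induced was the highest of the 4 arrays. In this region, 80.2% of probes on the non-induced and 57.3% on the induced array were well above background in both channels. From 158600001 to 159400000 timing was -0.72, -1.12, -1.13 and -1.89 in the same order, a difference of -0.75 ± 0.082 (-0.34 after scaling). The window from 154600001 to 154800000 had a difference of -0.80 ± 0.13 (-0.51 after scaling). On chromosome 10, the largest difference among the later regions, -0.92 ± 0.16 (-0.53 after scaling), was found from 125200001 to 125600000. Timing there was -0.86 for control, -0.24 for KO, -0.91 for non-induced and -1.83 for induced cells over 16 probes. KO was the highest array in this region and induced the lowest. Chromosome 2 from 178400001 to 178600000 was at -0.47, -1.19, -1.07 and -1.78, over 6 probes, a difference of -0.71 ± 0.20 (-0.32 after scaling).

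The 4 earlier windows lay on chromosomes 6, 7 and 10. Chromosome 6 from 148400001 to 148600000 was at -0.31 for control, 0.88 for KO, -0.085 for non-induced and 0.47 for induced cells, with 5 probes, and was the only distal window that was earlier in both comparisons. On chromosome 10, the windows starting at 127600001 and 126400001 were at 0.75, 0.44, 0.30 and 0.86 and 0.75, 0.57, 0.67 and 1.19. That of chromosome 7 starting at 148400001 was at 0.81, 0.46, 0.47 and 1.000. The last 3 were above 0 on all arrays, and none of the 4 passed the threshold after scaling.

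The 2 comparisons share no array, and 31 distal windows (6.80%) were later in both, against 726 (6.42%) of all autosomal windows. These 31 were 43.1% of the windows later in KO and 60.8% of those later in induced cells, where over all autosomal windows the shares were 29.2% and 56.2%. Of the 31, 10 lay on chromosome 17, 7 on chromosome 18, 5 on chromosome 3 and 4 on chromosome 10. After scaling, 5 of the 456 distal windows were later in both, against 128 of all 11314 windows (1.13%). Across the 19 ends, which share arrays, slides and probe density, the differences of both comparisons had a Pearson's r of 0.73 and a Spearman's rho of 0.47. Without chromosomes 17 and 18, r was 0.44, and with scaled arrays it was 0.50 over 19 ends and -0.064 over 17. The relation across ends therefore rests on those chromosomes once arrays are scaled.

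The non-induced and control arrays gave the size of differences between arrays of cells that were not labelled as deleted or induced, although they lay on different slides. Over the 19 ends the mean difference was -0.0060 (SD 0.16), from -0.27 on chromosome 18 to 0.39 on chromosome 9. By the same rule, 45 distal windows (9.87%) were later and 43 (9.43%) earlier in non-induced than in control cells, against 10.5% and 8.57% of all windows. After scaling, 7.02% were later and 7.46% earlier, against 7.53% and 7.45%. The KO minus control difference of -0.91 on chromosome 17 was larger than any of these differences between ends, and so was that of -0.60 on chromosome 18. Slide and cells cannot be told apart in this comparison.

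Some terminal stretches divided by sign between the control and KO pair and the non-induced and induced pair. The pairs differ in slide and in cells, which cannot be told apart here. The last 1 Mb of chromosome 1 was at 0.28 for control, 0.20 for KO, -0.38 for non-induced and -0.35 for induced cells, and that of chromosome 16 at 0.13, 0.67, -0.42 and -0.52 in the same order. Control and KO were above 0 at both, and non-induced and induced below 0. On chromosome 13 the non-induced and induced arrays were instead the higher ones in the last 0.4 Mb, a stretch singled out after its values were seen, and control and KO lay on different sides of 0. Its last window was at -0.26 for control, 0.33 for KO, 0.80 for non-induced and 1.07 for induced cells, and the one before it at -0.53, 0.027, 1.09 and 0.99, where the window starting at 119400001 was at -1.22, -1.47, -1.39 and -1.86. The non-induced and induced arrays thus rose from late to early within 1 Mb of the end of chromosome 13, control stayed below 0, and KO lay between control and the other 2 arrays.

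Genes could not be placed on these windows, since probe coordinates are on mouse build mm9 and the available table of genes on assembly GRCm38.p6. The 12 last protein-coding genes of each chromosome in the gene order of that assembly were looked up, and the ones given here are examples picked by hand. Those of chromosome 17 include Mettl4, Adcyap1, which encodes the neuropeptide PACAP, and Fshr and Lhcgr, receptors for gonadotropins. Those of chromosome 3 include Wls, a carrier for Wnt secretion, Rpe65, an enzyme of the visual cycle, and the neuronal adhesion gene Negr1, and also Srsf11, which encodes a splicing factor, Zranb2 and Lrrc40. Those of chromosome 10 include olfactory receptor genes (Olfr822 to Olfr827) and vomeronasal receptor genes (Vmn2r84 to Vmn2r87), both families used in the nose. On ends that were early on all arrays, the order has, on chromosome 15, the integrin gene Itga5, which encodes a fibronectin receptor subunit, the coatomer gene Copz1, Nfe2, which encodes a transcription factor of blood cells, Nckap1l, Gpr84, Gtsf1, Glycam1 and Mucl2, and on chromosome 11 Foxk2, Tbcd, a tubulin folding cofactor, and Metrnl. Both the late and the early ends thus list genes of restricted use beside widely used ones. Which of these lie in a given window was not determined.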

How the data were processed

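DNA from early and late S phase was measured in 4 groups of mouse embryonic fibroblasts, 1 array each. Per the file headers, the authors read the arrays with Agilent Feature Extraction 11.5.1.1, and the submitters' processing notes give version 9.1. The deposited processed signals are intensities after background subtraction, detrending and a linear dye factor, per the file headers. The deposited log10 ratios, late over early, were used as an alternative only. Per the file headers, other columns are quality flags with values of 0 or 1. Probe coordinates are on mouse build mm9.

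Timing was log2 of early over late processed intensity. Spots flagged as non-uniform or as population outliers (154 to 447 on an array) were dropped, repeated spots averaged, and the autosomal median of the array subtracted, with no loess or quantile step, since many loci may truly shift one way. Probes were averaged in 200 kb windows with at least 5 usable probes, and a window belonged to a distal end where all its probes did. Called windows of one direction under 1 Mb apart were merged, and the 6 largest regions per direction and comparison, with the one holding most called windows, were named. In distal ends, 47 probes were printed 5 times, with a median SD of their log2 ratios of 0.16, 0.16, 0.12 and 0.15 in control, KO, non-induced and induced cells. The number of arrays limits the precision. Scaled arrays were divided by the distance between their 10th and 90th window percentiles and multiplied by the mean distance over all arrays. Scaled values therefore stay in log2 units. The threshold for calling windows on scaled arrays was 0.557 in each comparison.

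The members, lists and rules were chosen with earlier results of these data known. Normexp was planned on mean signals and run on median signals. Software was R 4.3.3 with limma 3.58.1, and Python 3.11.15 with pandas 2.3.3, numpy 2.4.6, scipy 1.17.1 and matplotlib 3.10.9.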

Additional observations from a re-analysis of the deposited data

Results flagged for a closer look

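Data outside the comparisons held 1 difference between the control and KO arrays. Of the 122 probes on chromosome Y, 106 were well above background in both channels on the KO array, against 50 on the control, 53 on the non-induced and 41 on the induced array. Total signal on chromosome X relative to the autosomes was -0.38 for control, -0.88 for KO, -0.44 for non-induced and -0.42 for induced cells, lowest on the KO array. The KO and control cells therefore differed in signal from sex chromosomes. What part such differences between the cells have in the KO minus control timing of the distal ends was not tested.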

How the results depend on the processing

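No paired analysis was possible because each group has 1 array. The share of distal windows later in KO, 15.8%, was 9.21% after scaling the arrays to one spread, 5.48% with quantile normalization, 9.87% with normexp, 8.01% over probes well above background, 7.89% centred on the window median, 8.29% over odd and 8.22% over even probes, 9.35% in windows of 100 kb, 9.65% with a threshold of 0.35, and 9.25% without chromosomes 17 and 18, a choice made after seeing the data. The share earlier in KO, 13.4%, was 8.77% with scaling, 23.5% centred on the window median and 6.36% with 0.35. The share later in induced cells, 11.2%, was 1.75% with scaling, 1.54% with quantile normalization, 3.51% with normexp, 5.58% over probes well above background, 3.51% centred on the window median, 5.52% over odd and 6.30% over even probes, 6.19% in windows of 100 kb and 4.82% with 0.35. The share earlier in induced cells, 0.877%, was 0% with scaling, quantile normalization, windows of 500 kb and a threshold of 0.35, 3.51% with loess, 0.439% with normexp, 0.485% over probes well above background, 9.21% centred on the window median, 1.38% over odd and 1.92% over even probes, 0.543% in ends of 2 Mb and 7.89% with a threshold of 0.15. Over all autosomal windows, the shares fell with scaling too, from 22.0% to 13.5% later in KO and from 8.12% to 6.36% earlier. In induced cells they fell from 11.4% to 1.81% later and from 0.477% to 0.0707% earlier. A change in a distal share can thus follow the share over all windows, which is not given here for each setting. Centred on the window median, the mean differences were 0.14 in KO and 0.13 in induced cells. With ends of 2 Mb, the end minus the rest was -0.13 in non-induced cells. Among ends whose difference passed the interval over their probes, KO minus control turned direction on chromosomes 1 (-0.00044) and 16 (-0.022) with scaling, on chromosomes 3, 12 and 14 (0.053, 0.096 and 0.023) with quantile normalization, and on chromosomes 11, 13 and 15 (0.17, -0.010 and 0.030) with loess. It turned on chromosome 11 with normexp (0.0010) and over probes well above background (0.0021), and on chromosomes 11, 14 and 15 (0.092, 0.025 and 0.13) centred on the window median. It also turned on chromosomes 1 and 13 (-0.024 and -0.12) with ends of 2 Mb, and on chromosomes 11 and 16 (0.0012 and -0.0094) with ends of 10 Mb. Induced minus non-induced turned on chromosomes 4, 7, 8, 9 and 15 (-0.0039, -0.066, -0.027, -0.049 and -0.015) with scaling, on chromosomes 13 and 14 (0.048 and 0.022) with quantile normalization, on chromosomes 2 and 14 (0.086 and 0.067) centred on the window median, on chromosome 19 (-0.12) with ends of 2 Mb, and on chromosomes 6 and 7 (-0.054 and -0.0061) with ends of 10 Mb. Smaller differences turned too: in induced cells those of chromosomes 1, 5 and 16 (-0.051, -0.12 and -0.042) with scaling, and chromosome 10 under other settings, and in KO those of chromosomes 7 and 8. The mean over ends turned to above 0 in KO under 6 settings (0.00995 to 0.14) and in induced cells under 2 (0.011 and 0.13). The cause was not tested. The deposited log10 ratios and kept flagged spots moved none of these results, nor did a minimum of 10 probes, run for the window shares only. The ends of chromosomes 2, 4, 5, 6, 9, 10, 17, 18 and 19 kept their direction in KO under each alternative run.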

Other observations

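Over the 19 distal ends, mean timing of the arrays correlated at a Pearson's r of 0.99 for non-induced and induced, 0.97 for KO and induced, 0.96 for control with each of the non-induced and induced arrays, 0.95 for KO and non-induced and 0.91 for control and KO. Over the 456 distal windows, r was 0.97 for non-induced and induced and 0.83 to 0.89 for the other pairs. The points share probes and array design, and neighbouring windows share domains, so these are descriptions. The order placed control and KO, which shared a slide, furthest apart over the 19 ends. Over the 456 distal windows, KO and non-induced were furthest apart instead, at 0.83, and control and KO were at 0.86.

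In the terminal 1 Mb, over the 18 chromosomes with probes from 4 to 5 Mb, KO minus control averaged -0.048 (SD 0.36) and induced minus non-induced -0.21 (SD 0.32). The ends went both ways in KO, from -0.67 to 0.54 with 8 of 18 above 0, and 5 of 18 were above 0 in induced cells. The mean size without sign was 0.30 and 0.28. Induced minus non-induced was lower in the terminal 1 Mb than from 4 to 5 Mb in 14 of 18 chromosomes, by -0.18 on average (SD 0.19). The terminal stretches were also later to begin with, and these values are without scaling of the arrays.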
